A study of Drosophila melanogaster with 3 samples.

Results

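The janus and ocnus cluster consists of 3 neighbouring genes of Drosophila melanogaster, janA (CG7933), janB (CG7931) and ocn (CG7929), and was read through every non-control probe whose locus tag belongs to one of them. These were 3 of 13006 genes named on the array, and 4 of its 32162 probes. janA was represented by 2 probes, both annotated to its transcript CG7933-RC, which are called here the brighter and the dimmer janA probe by their mean signal over all arrays. janB (transcript CG7931-RA) and ocn (CG7929-RA) had 1 probe each. Both the dimmer janA probe and the janB probe were printed in 2 spots on each array, and the remaining probes in 1 spot. All 4 probes passed the filter on low signal, which kept the 24878 probes with a mean of at least log2 7 in at least 1 tissue.

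The arrays compared premeiotic germline with male thorax and with female thorax in flies of the wild-type laboratory strain OreR, with no mutation or treatment in any group. The germline was dissected in Ringer's solution from the apical tip of adult testes, labelled as coming from males aged 2 to 4 days, with the surrounding sheath taken off. The paper lists its germ cells up to early primary spermatocytes, with somatic cells of the niche and of the cysts. The tip is thus not a pure cell type, and the paper holds that further cell types and stages undoubtedly come with such dissections. The thoraxes, mostly flight muscle, were freed of head, abdomen, legs and wings, and their age was not labelled. The methods name mated adults for all dissections and give a wider span of ages than the label. Each tissue was assayed on 4 one-colour arrays of pooled RNA from many flies, so the spread between arrays is that between pools and not between single flies. The 12 arrays lay on 3 slides, of which slide A held replicates 1 and 2 of both thoraxes, slide B germline replicates 1 and 2 with male thorax replicates 3 and 4, and slide C germline replicates 3 and 4 with female thorax replicates 3 and 4. Germline replicate 1 stood apart from the other germline arrays. Over all probes its log2 signals correlated with theirs at r of 0.809 to 0.812 (Pearson), against 0.991 to 0.996 among the other 3, and it had the lowest share of probes well above background (56.4%). Values without it are given for the 4 probes and for the gene lists whose calls against the thoraxes then changed.

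The 3 genes are tandem copies that arose by duplication. They encode small proteins related to the mammalian protein histidine phosphatase. janA is known to be transcribed in both sexes and in many tissues, whereas transcripts of janB and ocn are known from the male germline. Ocnus protein is abundant in the testis, and Janus B and ocnus belong to the many genes of spermatogenesis that are switched on in primary spermatocytes, often well before their products are used in the spermatid. The genes lie side by side on the right arm of the third chromosome in the order ocn, janB, janA. In the reference annotation the spans of janB and janA overlap and those of ocn and janB do not. Where on the transcripts the probes lie is not known here, so signal from the stretch that janB and janA share could not be told apart.

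ocn was bright in the germline and dim in both thoraxes. Its background-subtracted intensity in the germline was 277949, 228160, 280825 and 285620 in replicates 1 to 4. In the male thorax it was 79.3, 78.87, 959.2 and 236.9, and in the female thorax 82.64, 31.82, 136.8 and 77.24. All germline arrays lay far above all thorax arrays, and male thorax replicate 3 was the highest thorax array. The scanner software called the spot well above background on all 4 germline arrays, on all 4 male thorax arrays and on 3 of the 4 female thorax arrays, so a weak signal was measured in most thorax pools.

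janB had the same pattern. Its intensity in the germline was 162785, 131580, 165346 and 159411 in replicates 1 to 4. In the male thorax it was 36.35, 42.34, 433.4 and 106.3, and in the female thorax 36.91, 17.6, 72.19 and 50.95. The germline and thorax arrays did not overlap, and male thorax replicate 3 was again the highest of the thorax arrays. janB was well above background on 2 of 4 arrays in each thorax, namely those of slides B and C, and on none of the 4 thorax arrays of slide A. The 2 spots of the probe differed by a median of 0.06 on the log2 scale over the 12 arrays and by 1.23 at most.

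janA was bright in every tissue. The brighter probe read 173894, 143997, 175174 and 183431 in germline replicates 1 to 4. It read 14731, 18188, 11573 and 15633 in the male thorax, and 18525, 10458, 20369 and 19670 in the female thorax. The dimmer probe read 52704, 31989, 32496 and 38014 in the germline, 1695, 2541, 1998 and 3082 in the male thorax, and 2800, 1512, 3966 and 3940 in the female thorax. Both probes were well above background on all 12 arrays, and for both the lowest germline array was above the highest thorax array.

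Arrays of the germline were brighter as a whole. The 75th percentile of the log2 signal lay between 13.52 and 13.78 on germline arrays and between 10.48 and 11.71 on thorax arrays, and the deposited signals carry no scaling between arrays. Each array's 75th percentile was therefore subtracted from its log2 signals, and levels are given relative to it. On this scale ocn was at 4.36 ± 0.06 (SD, n = 4) in the germline, -3.72 ± 2.06 in the male thorax and -4.83 ± 0.62 in the female thorax, with 4 arrays in each. janB was at 3.57 ± 0.08, -4.80 ± 1.99 and -5.72 ± 0.62 in the same order of tissues. The brighter janA probe was at 3.70 ± 0.05, 2.53 ± 0.15 and 3.01 ± 0.15, and the dimmer one at 1.55 ± 0.32, -0.17 ± 0.49 and 0.46 ± 0.38. For every probe the order of the tissue means put the germline first. The thoraxes followed in the order male then female for ocn and janB and female then male for janA, and the thorax arrays overlapped for all probes but the brighter janA probe.

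**Figure D1:**
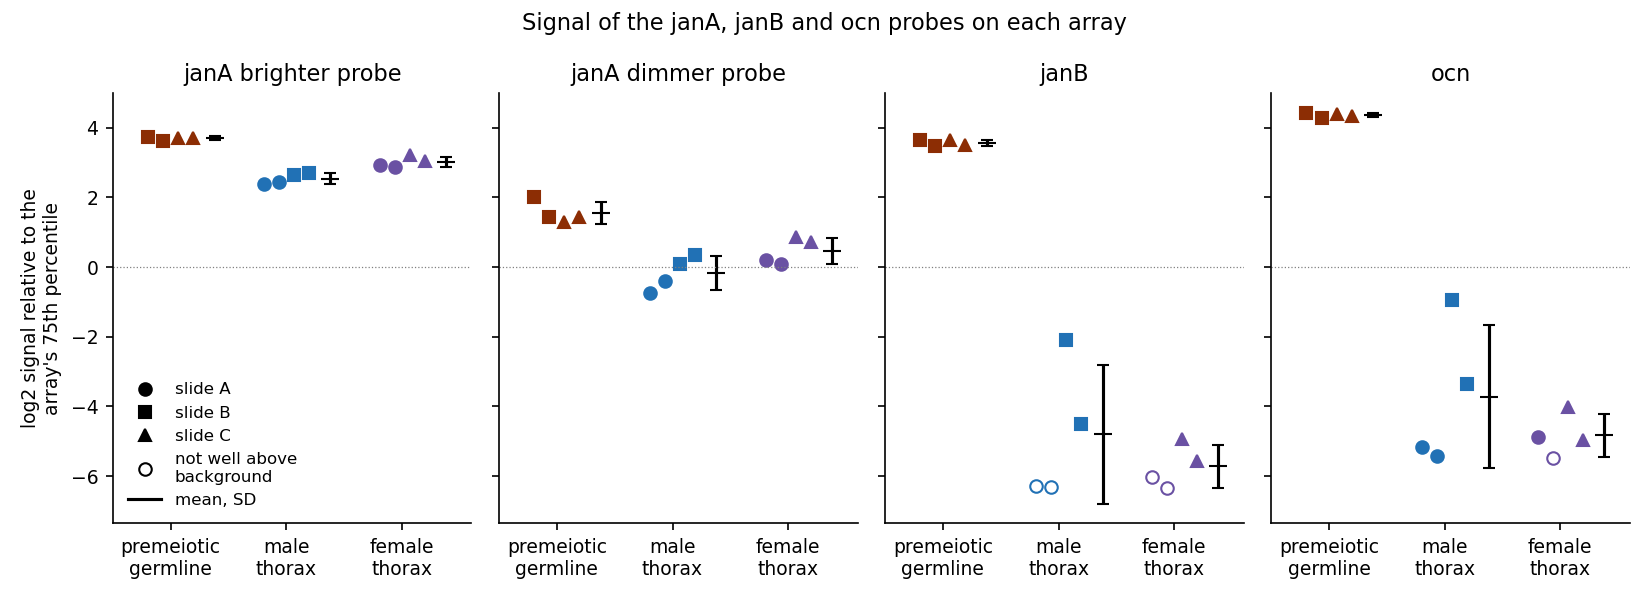
Scaled log2 signal of each probe, with the 75th percentile of its array at 0 (vertical axis), in each tissue (horizontal axis), 1 point per array and 4 arrays per tissue. The shape gives the slide, open points were not well above background, and the bar is the mean ± SD. ocn and janB fall from about 4 in the germline to well below 0 in the thorax, with the 2 slide B arrays above the 2 slide A arrays in the male thorax, while janA stays above 2 for the brighter probe in every array.

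The first comparison asked how the transcripts of the cluster differ between male germline and the soma of the same sex. In limma, all 4 probes were higher in the germline than in the male thorax at an adjusted p under 0.05 (Benjamini-Hochberg over all 24878 probes), where 29.3% of all tested probes were called higher and 47.2% lower (76.5% in all). Their arrays did not overlap either, which held for 26.8% of tested probes in this direction and for 45.5% in the other. janB was higher by 8.37 ± 0.78 on the log2 scale (SE), 331-fold, with an adjusted p of 1.32e-06. ocn was higher by 8.08 ± 0.81, 271-fold, with an adjusted p of 2.33e-06. janA rose far less, by 1.16 ± 0.18 at the brighter probe (adjusted p = 0.000104) and by 1.72 ± 0.30 at the dimmer one (adjusted p = 0.00028). Without germline replicate 1 the 4 probes were called too, with janB at 8.35, ocn at 8.06 and the janA probes at 1.15 and 1.57. In bulk tissue, fewer cells of a type and less RNA per cell cannot be told apart.

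Among all tested probes, 5.11% rose more than janB and 5.74% more than ocn in this comparison, against 28.7% and 24.2% for the brighter and the dimmer janA probe. The median change of all probes was -1.05, so the janA probes stood 2.21 and 2.78 above that median. The size of the change depends on the scaling: with no scaling the median of all probes moved to 1.29 and with quantile normalization to -0.36. The 4 probes were called higher under each scaling. With no scaling, janB and ocn were 1680-fold and 1375-fold higher and the janA probes 11.4-fold and 16.7-fold higher. The split of calls over all probes moved too, from 7296 higher and 11747 lower to 11980 higher and 6097 lower with no scaling. On slide B alone, with 2 arrays of each tissue, janB (6.87, adjusted p = 0.0107) and ocn (6.50, adjusted p = 0.012) were still called, and the janA probes were not (1.02 and 1.51, adjusted p = 0.237 and 0.126). With slide as a block in the fit to all arrays, the 4 probes were called, with janB at 7.56, ocn at 7.32 and the janA probes at 1.04 and 1.44.

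The second comparison set the same germline arrays against the female thorax to ask the same of the soma of the other sex. All 4 probes were again called higher, against 28.8% of all tested probes called higher and 47.4% lower (76.3% in all). Their arrays did not overlap, as for 26.4% of tested probes in this direction and 46% in the other. janB was higher by 9.28 ± 0.78 (624-fold, adjusted p = 5.3e-07) and ocn by 9.19 ± 0.81 (585-fold, adjusted p = 7.56e-07). The brighter janA probe was higher by 0.68 ± 0.18 (adjusted p = 0.00483) and the dimmer one by 1.08 ± 0.30 (adjusted p = 0.00677). The median of all probes was again -1.05, and 4.08% of probes rose more than janB, 4.24% more than ocn, and 32.8% and 29.1% more than the 2 janA probes. Without germline replicate 1 the changes were 9.26 for janB, 9.17 for ocn and 0.67 and 0.93 for the janA probes, and all 4 were called. The sizes again depended on the scaling. The brighter janA probe was higher by 2.28 with quantile normalization and by 3.33 with no scaling, where the split over all probes turned from 7175 higher and 11796 lower to 12816 higher and 5467 lower. On slide C alone all 4 probes were called, with janB at 8.82, ocn at 8.86 and the janA probes at 0.59 and 0.58. That setting called 22384 of 24872 probes, 9277 of them higher and 13107 lower. With slide as a block the 4 member probes were called too, at 8.13, 8.04, 0.57 and 0.65 in the same order. Both comparisons use the same 4 germline arrays and are not independent of each other.

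**Figure D2:**
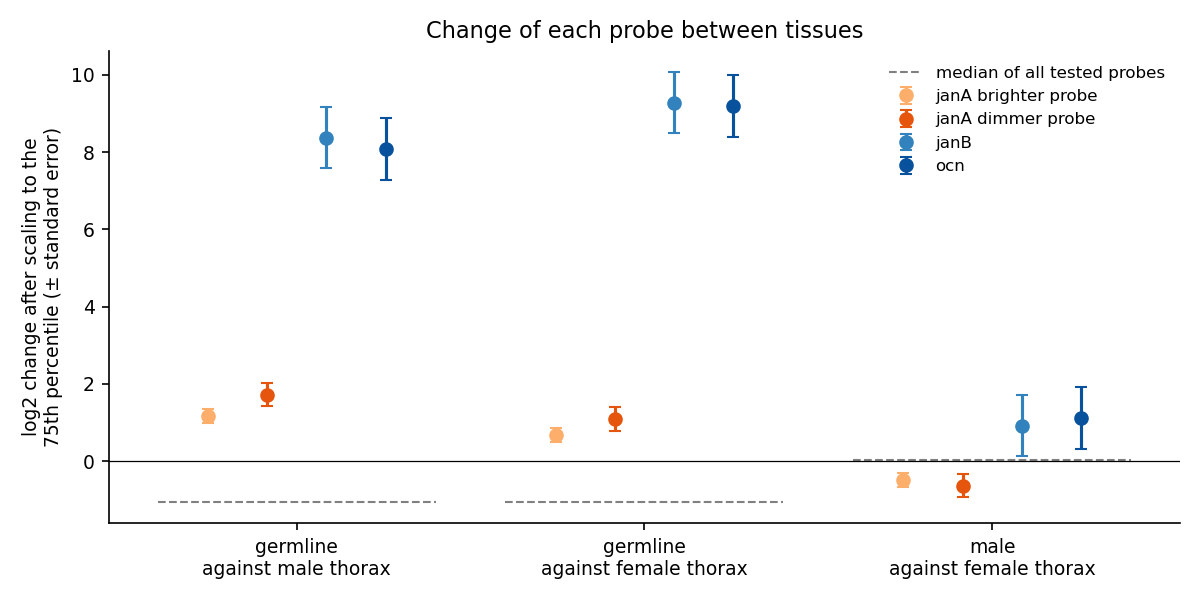
Log2 change of each probe after scaling (vertical axis, limma estimate ± SE) in the 3 comparisons (horizontal axis), with the median of all tested probes as a dashed line. janB and ocn lie between 8.08 and 9.28 in both germline comparisons and the janA probes between 0.68 and 1.72, and between the thoraxes no probe was called.

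Between male and female thorax none of the 4 probes was called, where 0.153% of all tested probes were higher in males and 0.37% lower (0.523% in all). ocn was 1.11 ± 0.81 (log2, male minus female) with an adjusted p of 0.953, and janB 0.91 ± 0.78 with an adjusted p of 1.0. The janA probes pointed the other way, at -0.48 ± 0.18 and -0.64 ± 0.30, with adjusted p of 0.518 and 0.694. For 1 of the 4 probes, the brighter janA probe, the unadjusted p was under 0.05 (0.0228). On that probe the highest male array (2.69) lay below the lowest female array (2.87), and over all probes the arrays did not overlap for 6.43% in this direction and 7.82% in the other. With no scaling its arrays did overlap, from 13.50 to 14.15 in males and from 13.35 to 14.31 in females. Its change in limma was then -0.17 (adjusted p = 0.956). With array weights in limma both janA probes were called lower in males, by -0.50 (adjusted p = 0.00288) and -0.68 (adjusted p = 0.0137). That fit called 5264 of the 24878 tested probes, 3082 of them lower in males. Its weights ran from 0.0171 for germline replicate 1 to 8.38 for germline replicate 3. On slide A, which holds 2 arrays of each thorax, ocn and janB both differed by -0.11 between male and female thorax.

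Differences between members on the same array are free of any constant subtracted from that array, as the 75th percentile is, though not of quantile normalization, which alters each probe by its rank. Because each probe binds its target with its own strength, such a difference is read only between tissues and not as a ratio of transcript levels. janB minus the brighter janA probe was -0.13 ± 0.05 (SD, n = 4 arrays) in the germline, -7.34 ± 1.87 in the male thorax and -8.73 ± 0.47 in the female thorax. ocn minus janA was 0.67 ± 0.02, -6.26 ± 1.94 and -7.84 ± 0.48. Relative to janA, janB was thus 7.21 ± 0.94 (SE) higher in the germline than in the male thorax and 8.60 ± 0.24 higher than in the female thorax, and ocn 6.92 ± 0.97 and 8.51 ± 0.24. None of these groups of arrays overlapped. The exact two-sided permutation test gave p = 0.0286 for each of the 4, the smallest that 70 labellings of 4 against 4 arrays allow, and 0.0514 after adjustment over the 9 differences tested.

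ocn and janB kept step with each other far more closely. ocn minus janB was 0.79 ± 0.03 (SD, n = 4) in the germline, 1.08 ± 0.12 in the male thorax and 0.88 ± 0.23 in the female thorax. Over all 12 arrays this difference lay between 0.60 and 1.16, while ocn itself ranged from -5.49 to 4.42. These include the thorax arrays of slide A, where janB was not well above background. Whether either probe also binds the transcript of the other gene was not tested. Against the male thorax the difference was 0.29 ± 0.06 (SE) smaller in the germline (a change of -0.29, exact permutation p = 0.0286, 0.0514 adjusted), and against the female thorax it changed by -0.09 ± 0.12 (p = 0.571, exact permutation). With normexp background correction these turned to 0.08 (exact permutation p = 0.429) and 0.40 (exact permutation p = 0.0286), and with quantile normalization ocn rose more than janB (10.40 against 10.13 for the male thorax, 11.48 against 10.95 for the female thorax), so no direction is given for them.

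**Figure D3:**
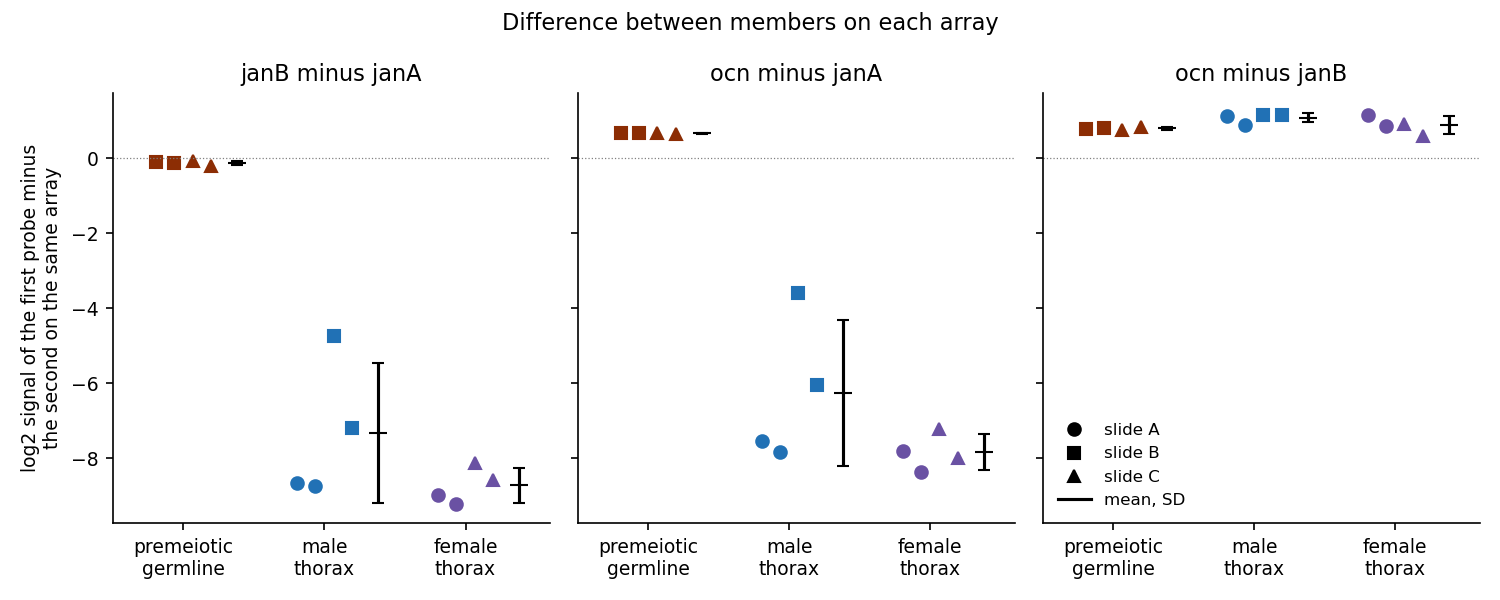
Log2 signal of one probe minus another on the same array (vertical axis) by tissue (horizontal axis), 1 point per array with the shape giving the slide and the bar the mean ± SD of 4 arrays. The differences to janA drop by 6.92 to 8.60 on average from germline to thorax, while ocn minus janB stays between 0.60 and 1.16 on every array.

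Within the male thorax, ocn and janB differed between slides. ocn lay at -5.17 and -5.41 on slide A and at -0.96 and -3.35 on slide B, and janB at -6.29 and -6.31 on slide A and at -2.10 and -4.51 on slide B. The mean of slide B was 3.13 higher than that of slide A for ocn and 2.99 higher for janB, larger than for all but 1.14% and 1.32% of probes, whose median difference was 0.02. The brighter janA probe differed by 0.26 and the dimmer one by 0.80. In the female thorax, slide C was 0.70 above slide A for ocn and 0.94 for janB, beside a median of -0.18 over all probes. No label says what else differs between these slides, and no test was made on 2 arrays against 2. Slides B and C carried germline arrays beside the thorax arrays and slide A did not.

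The levels of sperm genes moved with these arrays. Among 20 measured genes for sperm and late spermatid proteins, the median difference between slides B and A of the male thorax was 3.47. On male thorax replicates 1 to 4 the median level of these genes was -6.67, -6.30, -1.43 and -3.87, and 7, 9, 19 and 18 of the 20 were well above background. In the female thorax the medians were -5.55, -6.62, -4.32 and -4.97, with 8, 7, 15 and 16 well above background. The summed signal of the list, relative to the 75th percentile, ranged from 5.33 to 6.28 in the male thorax and from 6.16 to 6.70 in the female thorax, against 7.99 to 8.14 in the germline. The sum in the thorax is carried by loopin-1, whose mean level there was 5.76 in males and 6.39 in females. For 7 germ cell markers the median difference between slides B and A was 0.98, and for 12 regulators of spermatocyte transcription 0.50. Between slides C and A of the female thorax the median difference was 0.94 for the sperm genes, -0.07 for the germ cell markers and 0.09 for the regulators. Their part in the thorax signal of ocn and janB was not tested. With the thorax arrays of slide A alone, an alternative chosen after seeing the data, the 4 probes were called in both comparisons, with janB 9.87 and 9.76 and ocn 9.65 and 9.54 higher in the germline than in male and female thorax.

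**Figure D4:**
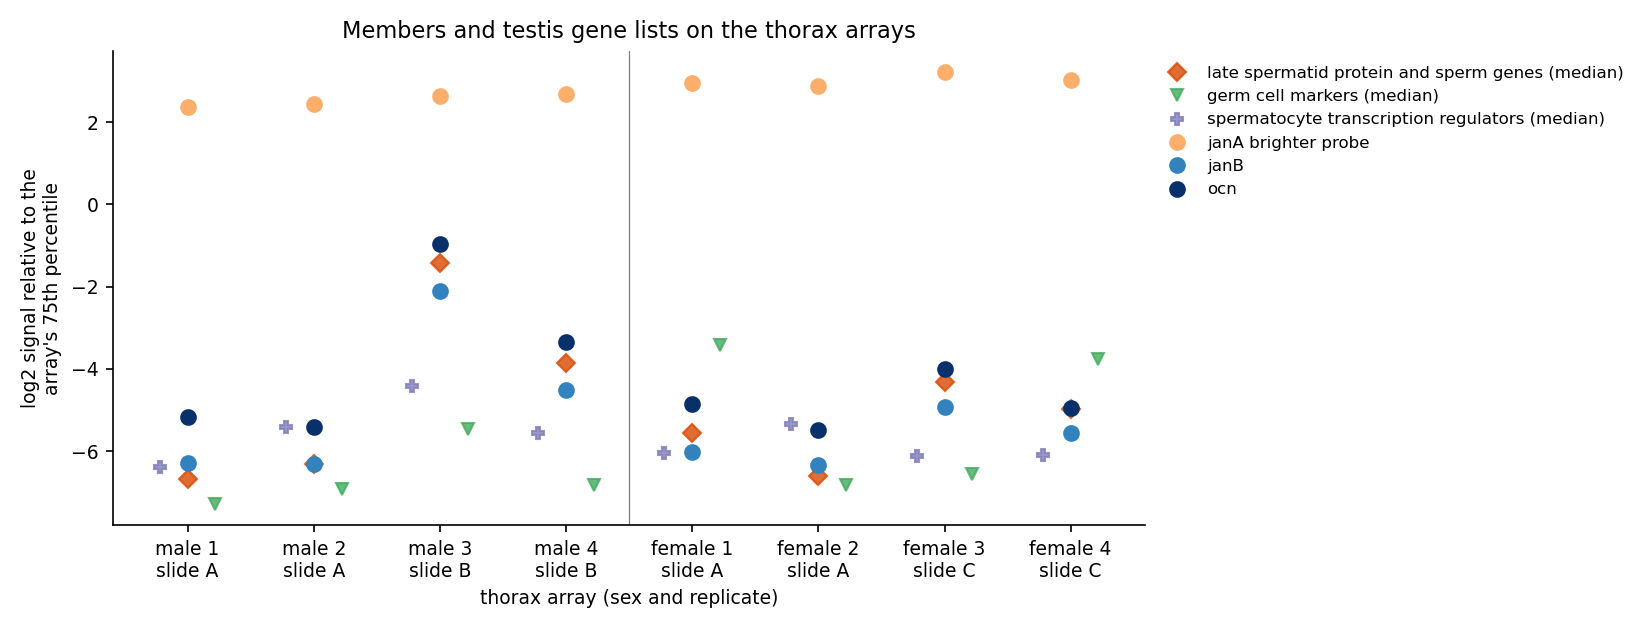
Scaled log2 signal, with the 75th percentile of each array at 0 (vertical axis), of janA, janB and ocn and the medians of 3 testis gene lists on the 8 thorax arrays (horizontal axis, with sex, replicate and slide). ocn, janB and the median of the sperm genes are highest on male replicates 3 and 4 of slide B, while janA stays between 2.37 and 3.21.

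Other genes of spermatogenesis gave the setting for these changes. The sperm and late spermatid list counted 18 genes higher, 1 lower and 1 not called in the germline against the male thorax, with a median change of 8.14, and 19 higher and 1 lower against the female thorax, with a median of 8.69. The median over all probes was -1.05 in both, where 29.3% and 28.8% of tested probes were called higher and 47.2% and 47.4% lower. Examples are Prtl99C, a sperm chromatin protein (9.53 against the male thorax), and Mst84Da, a protein of the sperm tail (9.45). They were well above background on 1 and 2 of the 4 male thorax arrays, so the sizes rest partly on signals near background. The exception was loopin-1 (-1.85 and -2.47), a protein of sperm mitochondria whose brightest of 4 probes was read, and its change was 0.50 and 0.18 with no scaling. Mst36Fa did not pass against the male thorax (1.43, adjusted p = 0.154). Its germline arrays ranged from -8.26 to -3.49, and 3 of them were well above background. Without germline replicate 1 the list counted 19 higher and 1 lower in each comparison, so all 20 genes were then called. janB and ocn had changes close to the medians of this list.

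All 12 regulators of spermatocyte transcription, among them components of the testis-specific meiotic arrest complexes, were higher against both thoraxes, with medians of 7.66 and 7.71. wuc was not well above background on any male thorax array and was at least 257-fold higher in the germline, a bound taken from the lowest signals well above background on those arrays. tomb, measured on 1 of the 4 male thorax arrays, changed by 8.77. All 12 were well above background on every germline array. Germ cell markers were higher for 6 of 7 measured genes against the male thorax and 5 of 7 against the female thorax, with a median change of 6.65 against the male thorax. bgcn, which restrains the mitotic divisions and was well above background on 1 male thorax array, changed by 8.88. vas, a germline RNA helicase seen on no male thorax array, was at least 109-fold higher. zpg was called in neither comparison, and nos had no probe. Without germline replicate 1, 7 and 6 of the 7 were higher.

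The soma of the testis and other tissues served as checks of the dissection. Of 7 hub and cyst cell markers, 2 were higher, 1 lower and 4 not called against the male thorax, and 4, 1 and 2 against the female thorax, with medians of 1.09 and 1.34. Over all tested probes 29.3% were higher and 47.2% lower against the male thorax, and 28.8% and 47.4% against the female thorax. Without germline replicate 1, 2 of the 7 were higher and 2 lower against the male thorax (median 0.57). Against the female thorax the counts were then 4 and 1 (median 0.82). upd1, the hub ligand, was not well above background on male thorax arrays and was at least 2.10-fold higher, eya, a cyst cell factor, was higher by 1.38, and Fas3 was lower by -1.25. With no scaling none of the 7 was lower. Over all probes that setting called 11980 higher and 6097 lower against the male thorax, and 12816 and 5467 against the female thorax. All 7 muscle genes were lower in the germline, with medians of -9.95 and -10.39, among them Act88F (-12.09) and up, which was not well above background on any germline array and was at least 2640-fold lower there than in the male thorax. Fat body genes were lower for 5 of 6 and 6 of 6. Against the male thorax Lsp2 was lower by -4.67, and Fbp1, not well above background in the germline, at least 13.4-fold. The yolk proteins Yp1, Yp2 and Yp3 were lower in male than in female thorax by -11.62, -9.59 and -9.85. Of 4 neuron genes, 3 were lower in each comparison, with elav (-6.34) and nSyb (-3.72) as examples against the male thorax, where brp was called higher (1.24). With no scaling only 1 of the 4 was lower in each comparison and 1 higher. Without germline replicate 1, 1 of the 4 was higher and 3 lower against the male thorax, and 2 were lower against the female thorax. Accessory gland genes, which encode seminal proteins of another organ of the male tract, were higher in the germline for 6 of 7 genes in each comparison. Without germline replicate 1, 6 of 7 were again higher in each, and 1 was called lower against the male thorax. Acp36DE and SP, not well above background on any thorax array, were at least 78.7-fold and 17.9-fold higher than in the male thorax. All 7 were well above background on every germline array, against 1 to 2 on male and 1 on female thorax arrays. Their summed signal was 2.45 on germline replicate 1 and 0.26 to 0.75 on the other 3 germline arrays, -2.06 to -0.38 in the male thorax and -4.29 to -2.30 in the female thorax. Germline replicate 1 was also the highest germline array for the summed signal of the muscle genes (1.07 against -0.57 to -0.42), the fat body genes (3.44 against 1.91 to 2.17) and the hub and cyst cell markers (1.69 against 0.13 to 0.23). The part of these tissues in the germline signal of the cluster was not tested, and the changes of its 4 probes without that array stand above.

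Genes around the cluster did not share the change of janB and ocn as a block. Among the 10 measured genes on each side, 19 were tested. In the germline 12 were higher, 5 lower and 2 not called against the male thorax, and 10, 5 and 4 against the female thorax, with medians of 1.44 and 1.39. Over all tested probes 29.3% were higher and 47.2% lower in the first comparison, and 28.8% and 47.4% in the second. With no scaling 14 of the 19 were higher and 1 lower in the first comparison and 15 and 1 in the second. Over all 24878 probes that setting called 11980 higher and 6097 lower in the first, and 12816 and 5467 in the second. Without germline replicate 1, 13 of the 19 were higher and 6 lower in the first comparison, and 11 and 6 in the second. Over all 25092 probes tested then, 8755 were higher and 12730 lower in the first, and 8679 and 12763 in the second. ZIPIC, a zinc finger protein of chromatin insulators next to ocn, was higher by 2.88 against the male thorax and 2.74 against the female thorax. Axn, the scaffold of the complex that degrades beta-catenin, was higher by 1.09 and 1.39. On the other side, next to janA, Sry-alpha, which acts in the cellularization of the embryo, was higher by 1.74 and 2.36, and Sry-beta, a zinc finger protein, by 2.00 and 1.59. Sry-alpha was dim, with mean levels of -3.48 in the germline, -5.23 in the male and -5.85 in the female thorax. It was well above background on 1 of 4 female thorax arrays. Its lowest germline array (-5.49) lay below its highest male thorax array (-5.05).

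Further genes of the region were chosen for mention after their values were seen. RpL32, a ribosomal protein gene often used as a reference, was lower by -2.25 and -3.01 after scaling, but its changes were 0.09 and -0.36 with no scaling. Rpp14b, well above background on 1 male and on no female thorax array, was higher by 7.34 against the male thorax and at least 116-fold higher than in the female thorax. CG34298 was higher by 5.90 and 5.38, while CG15528 was lower by -6.76 and -5.92. CG7912 was not tested.

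**Figure D5:**
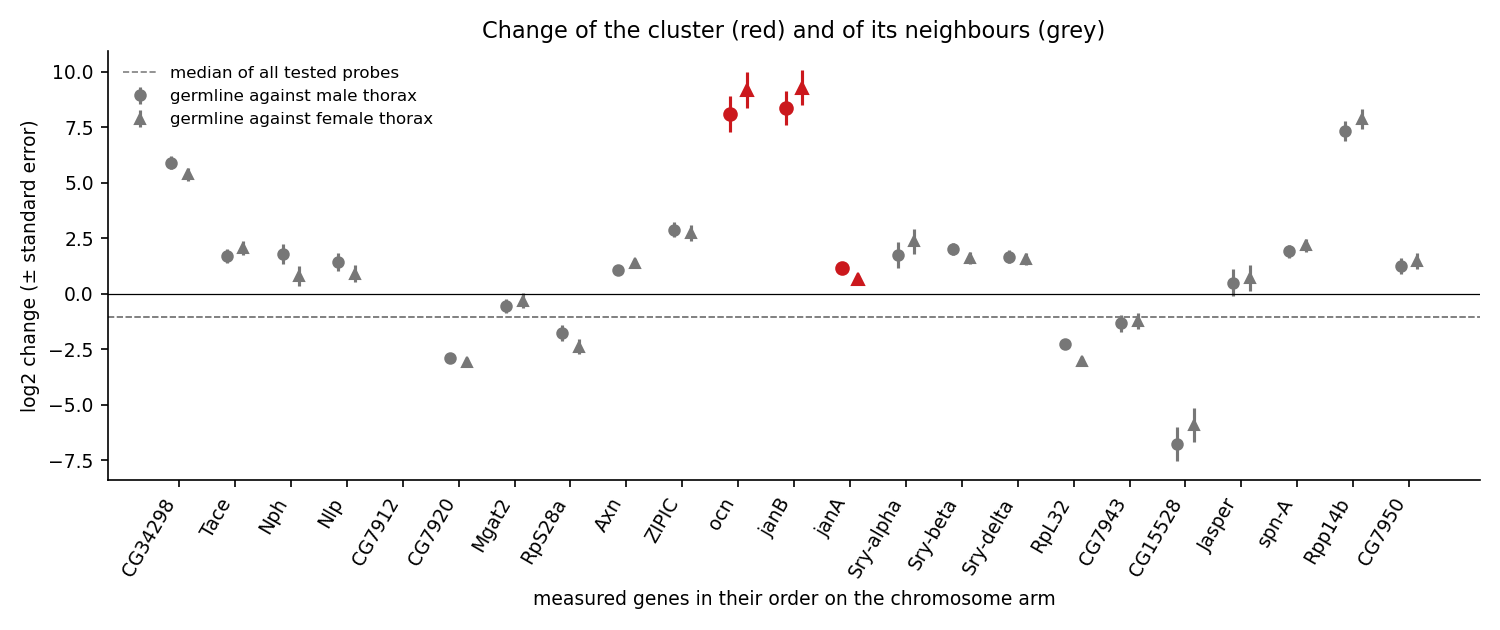
Log2 change in the germline (vertical axis, limma estimate ± SE) of the cluster in red and of the 10 measured genes on each side in grey, in their order on the chromosome arm (horizontal axis), circles against the male and triangles against the female thorax. ocn and janB stand between 8.08 and 9.28, janA at 1.16 and 0.68, and the fitted changes of the neighbours range from -6.76 for CG15528 to 7.87 for Rpp14b, whose thorax signals were mostly not well above background.

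The genes most alike to each member were found by the root mean square difference of log2 levels over the 12 arrays, after each gene was centred on its own mean, among 11887 genes with 1 probe each. For janB the most alike gene was ocn, at 0.18, and for ocn it was janB. CG33664 came second for both, at 0.21 from janB and 0.26 from ocn. Next to janB followed CG7886, CG31538 and CG33293, and next to ocn CG31538, lncRNA:CR32652 and dj (0.35), which encodes a protein of the sperm tail. janA was most alike to CG10470 (0.13), followed by mge, a component of the mitochondrial import pore, Ref1, an mRNA export factor, Phb1, a prohibitin of the inner mitochondrial membrane, and CG8617 (0.15). janB and ocn ranked 10619 and 10537 in likeness to janA. The step between germline and thorax enters every such difference, and binding of a probe to a related transcript of the cluster was not tested.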

How the data were processed

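Intensities were deposited as spot values of 1-colour Agilent arrays, which per the file headers were background-subtracted by Feature Extraction (10.5.1.1; the submitters' processing notes name 9.1) with no scaling between arrays. A further table, made by the authors, gives 1 log2 value per probe and tissue, averaged over arrays, and was an alternative here. Their array annotation was built on Dm3, BDGP5.4; the reference gene table, of a later release, gave only names and neighbour order (18121 probes matched by locus tag, 1246 by an older tag, 12795 unmatched). Flagged outlier spots (112 to 389 per array) were left out, replicate spots averaged, and log2 signals set relative to the array's 75th percentile. Probes with a mean under log2 7 in all tissues were removed. limma 3.58.1 (R 4.3.3; lmFit, eBayes) was fitted to all 12 arrays and adjusted over all tested probes, after it was tested on simulated data. Within-array differences were tested by exact permutation over all labellings, and adjusted by Benjamini-Hochberg with scipy 1.17.1. Well above background was 56.4% to 73.7% of probes per array, lowest on germline replicate 1; the number of arrays limits the precision.

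Alternatives were other scalings, normexp background correction, other filters, slide as a block or alone, array weights, fewer arrays and the deposited table. The genes, lists and alternatives were chosen with earlier results of these data known. Named were all members, 2 neighbours on each side, the 5 most alike genes of each member, and the 2 largest called changes in each direction of a list against the male thorax (the yolk genes were added for the thorax comparison), with 1 probe per gene, the brightest. The replicate numbers follow slide and position on it. Probe sequences and coordinates were not used here.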

Additional observations from a re-analysis of the deposited data

Results flagged for a closer look

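Of 21 groups of 4 arrays that were examined for a single array far from the others, 1 stood out. ocn minus janB on the same array was 0.90 in male thorax replicate 2, against 1.13 to 1.16 on the other 3 male thorax arrays, and the gap made up 0.88 of the group's range. Chance alone would single out about 1 group in 20.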

How the results depend on the processing

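No paired analysis was possible because the replicate numbers only name arrays by slide and position. All 4 probes were called higher in the germline against both thoraxes under every alternative that allows a test but slide B alone, where 2 of 4 were called against the male thorax (10678 probes in all, against 19043), and under every omission of 1 array. Slide C alone called 22384 probes in all against the female thorax, where the main fit called 18971. Between thoraxes the count of member calls was 0 except with array weights, where it was 2. Over all probes the thoraxes differed at 130, at 5264 with array weights, at 294 with 8 arrays, at 90 with normexp and at 1273 without germline replicate 1. Not called, janB turned to -0.20 (normexp), -0.11 (slide A) and -0.037 (weights), and ocn to -0.11 (slide A) and -0.091 (weights). With normexp the germline changes of janB and ocn were 7.29 and 7.38 against the male and 7.09 and 7.498 against the female thorax.

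Within-array differences on arrays with both probes well above background were 5.84 and 8.24 for janB minus janA and -0.36 and 0.032 for ocn minus janB, against male and female thorax. On the slide with both tissues, where p cannot go below 0.333 in an exact permutation test, they were 5.86 and 8.22 for janB minus janA, 5.49 and 8.27 for ocn minus janA, and -0.37 and 0.042 for ocn minus janB. With normexp, ocn minus janB was 0.081, 0.40 and, between thoraxes, 0.32 (exact permutation p = 0.0286). Leaving out 1 array, ocn minus janB ranged from -0.35 to -0.26 against the male thorax and from -0.19 (without female thorax replicate 4) to 0.00087 (without female thorax replicate 1) against the female thorax. Without male thorax replicate 3, the changes of janB and ocn against the male thorax reached 9.27 and 9.004, and without male thorax replicate 1 or 2 they were as low as 7.87 and 7.52. The causes were not tested. Thorax signals of janB near background limit its fold changes.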
